A study of Mus musculus with 14 samples.

Results

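Fos, Fosb, Fosl1, Fosl2, Jun, Junb, Jund, Egr1, Nr4a1 and Nr4a3, which encode the AP-1 subunits of the Fos and Jun families and the early response factors Egr1, Nr4a1 and Nr4a3, were examined in differentiating C2C12 cells. They were taken by gene name from the 24016 genes in the deposited table, with earlier results of these data known. All 10 passed the filter of a mean of at least 1 that left 14312 transcripts for testing. C2C12 myoblasts are a mouse muscle precursor line whose cells fuse when serum is lowered. The cells had been transfected with a control siRNA (siCtrl) or with a pool of siRNAs against Klf5 (siKlf5), a Kruppel-like transcription factor. Both groups were grown in medium with fetal bovine serum (day 0) and then moved to medium with little horse serum (days 1, 2 and 3). Poly(A) RNA was sequenced from 1 library per siRNA and day, thus from 8 libraries in all, and no siRNA and day had a replicate. Day and medium cannot be told apart between day 0 and the later days. A pool of transfected cells is a knockdown and not a deletion, and fewer cells of a type and less RNA per cell cannot be told apart in such bulk RNA.

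On days 0 to 3, Klf5 mRNA in siKlf5 cells was 15.7%, 41.9%, 31.3% and 22.7% of the siCtrl level. The skeletal muscle markers were present in all libraries (7 of 7 markers, summed level of 2651 to 13094 FPKM), whereas those of macrophages summed to 25.4 to 79.0 FPKM, those of endothelium to at most 1.04 FPKM and those of epithelium to 1.65 to 38.1 FPKM, with Epcam and Krt18 at 0 in every library. The libraries held 7850497 reads (siCtrl, day 1) to 20301506 reads (siCtrl, day 2). FPKM here are reads per exon length, scaled by the authors to a larger total than usual, so that levels cannot be set against those of other tables. The authors kept at most 3 reads per position, and levels of abundant transcripts moved with library depth, as given for Jund below. This limits comparisons of abundant genes between genes and between libraries of this table too. Ratios between siRNAs are given with 95% exact binomial (Clopper-Pearson) intervals, which cover counting error only.

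AP-1 is a dimer of basic leucine zipper proteins. Jun proteins can pair with each other or with Fos proteins, whereas Fos proteins need a Jun partner. Fos, Fosb, Egr1, Nr4a1 and Nr4a3 are textbook immediate early genes, which are transcribed within minutes of a serum or growth factor stimulus without new protein synthesis and are then shut off, while Jund and Fosl2 are less transient and Fosl1 (Fra-1) is itself induced by AP-1 in growing cells. In myoblasts, high Fos and Jun activity is known for opposing MyoD, and serum withdrawal is the usual signal to differentiate. Libraries a day apart cannot follow a burst of induction over minutes, and whether a level here holds part of such a burst was not tested.

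The promoters of these genes are known for short control elements that stimulus-driven factors bind. The 250 bases before the annotated start are shown for Fos, Junb and Nr4a1, whose mRNA was higher on day 3 than on day 0 in both groups, and for Jun, whose mRNA was not called, to let the elements be compared. They are RefSeq sequences of build GRCm38.p6, 5′ to 3′ on the strand of the gene, with the CRE core, the Egr site and the Jun element TGACATCA in capitals.
Fos (chr12:85473640-85473889, plus strand): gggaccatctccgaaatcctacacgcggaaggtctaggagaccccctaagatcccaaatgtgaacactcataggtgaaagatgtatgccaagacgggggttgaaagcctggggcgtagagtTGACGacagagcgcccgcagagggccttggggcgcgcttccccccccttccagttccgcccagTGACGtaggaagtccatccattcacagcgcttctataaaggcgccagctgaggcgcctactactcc
Junb (chr8:84978749-84978998, minus strand): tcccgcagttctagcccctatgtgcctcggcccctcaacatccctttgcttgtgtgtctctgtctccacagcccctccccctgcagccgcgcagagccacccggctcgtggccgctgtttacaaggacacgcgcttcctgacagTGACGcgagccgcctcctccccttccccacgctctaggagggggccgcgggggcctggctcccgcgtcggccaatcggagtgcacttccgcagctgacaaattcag
Nr4a1 (chr15:101266596-101266845, plus strand): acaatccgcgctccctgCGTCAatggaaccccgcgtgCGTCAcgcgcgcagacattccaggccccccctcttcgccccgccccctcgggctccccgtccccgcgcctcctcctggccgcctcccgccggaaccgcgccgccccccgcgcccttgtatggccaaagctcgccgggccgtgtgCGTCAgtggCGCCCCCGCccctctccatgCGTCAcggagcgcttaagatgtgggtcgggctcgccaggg
Jun (chr4:95052223-95052472, minus strand): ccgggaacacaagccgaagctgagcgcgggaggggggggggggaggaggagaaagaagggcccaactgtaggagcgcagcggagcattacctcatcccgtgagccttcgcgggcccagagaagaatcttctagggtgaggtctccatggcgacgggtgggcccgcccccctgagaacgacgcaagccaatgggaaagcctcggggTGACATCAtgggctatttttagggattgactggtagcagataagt

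The CRE core, TGACG on either strand, is the core that CREB and ATF factors recognize. It lay 2 times in the Fos window above, once in that of Junb and 4 times in that of Nr4a1, and of the 8 genes with a promoter in the table, 5 held it (Fos, Fosb, Junb, Nr4a1 and Nr4a3), beside 17.77% of all 32851 promoters. The Egr site, GCGGGGGCG or GCGTGGGCG on either strand, was present in 3 of 8 (Fosb, Fosl2 and Nr4a1), beside 3.06% of all promoters, and in each of the 3 it overlapped a GC box. TGACATCA, which was searched on both strands, was found in Jun alone among the 8, 45 bases before the start, and in 2.93% of all promoters. The full CRE TGACGTCA, the AP-1 site TGACTCA or TGAGTCA, the NBRE AAAGGTCA and the CArG box were in 0 of 8 windows on either strand, and in 1.55%, 4.46%, 1.34% and 1.47% of all promoters. The letters CACCC, which many Kruppel-like factors bind, were in 6 of 8 windows, beside 52.01% of all promoters (both strands; in Fosb and Nr4a3 1 match overlapped a CRE core and in Jun 1 overlapped TGACATCA), and the GC box CCGCCC was in 6 of 8, beside 32.74%. A match is a description of these letters and not a binding site, and promoters for Fosl1 and Egr1 were not matched.

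The most abundant of the 10 mRNAs were those of the Jun family, and the least abundant were Fosb and Nr4a3. Over the 8 libraries the mean level was 749 FPKM for Jund, 526 for Junb, 500 for Jun, 371 for Egr1, 223 for Fosl1, 178 for Fosl2, 54.2 for Nr4a1, 13.4 for Fos, 2.18 for Fosb and 1.35 for Nr4a3. In this order Jund was above Junb in 7 of 8 libraries, and Fosl2 was above Nr4a1, and Nr4a1 above Fos, in 8 of 8. The neighbours Junb and Jun, Jun and Egr1, and Fosl1 and Fosl2 changed places between libraries (the first was above the second in 5, 4 and 3 of 8), so that their order did not exceed their spread.

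**Figure D1:**
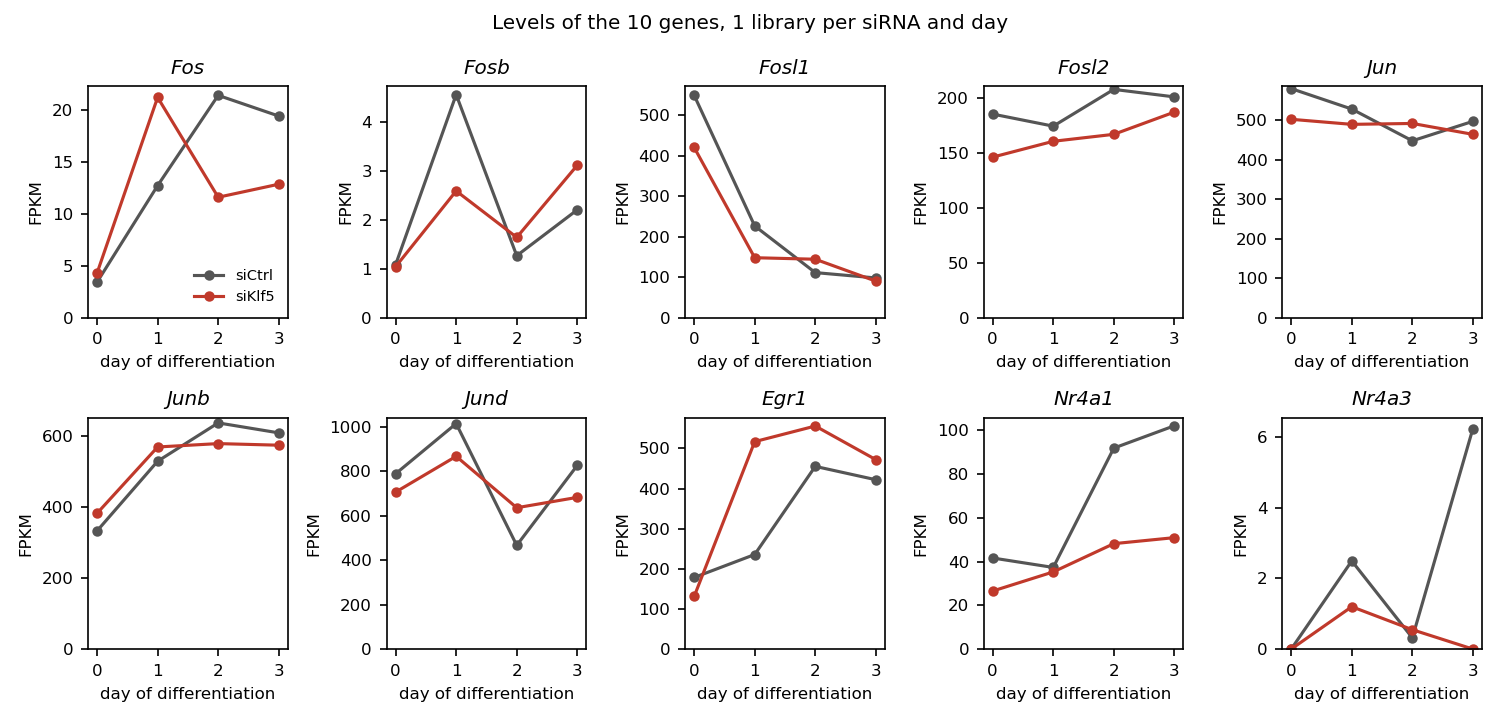
FPKM of each gene (vertical axis, linear, from 0) on each day of differentiation (horizontal axis) in siCtrl cells (grey) and siKlf5 cells (red). Each point is 1 library and no error bar can be drawn; Fosl1 is highest on day 0 in both groups, whereas Junb and Egr1 are lowest there.

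To ask which of these mRNAs changed over differentiation, day 3 was compared with day 0 over both siRNAs in a limma fit with day and siRNA as terms. Of the 10 genes, 4 were called higher on day 3 (Fos, Junb, Egr1 and Nr4a1), beside 13.1% of all transcripts tested, and 1 was called lower (Fosl1), beside 18.0%. The other 5 (Fosb, Fosl2, Jun, Jund and Nr4a3) were not called. The fit over any change between the days also called 5 of the 10 (Fos, Fosl1, Junb, Jund and Nr4a1), beside 27.1% of all transcripts. By limma voom the F test also called 5, with Egr1 (adjusted p = 0.000135) in place of Fos (adjusted p = 0.0662). The spread in these tests is how the siRNA difference varies between the days, with 3 residual degrees of freedom. Limma moderates this spread by that of all transcripts tested, and p-values measure only the spread between these libraries.

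Fosl1, the Fos family member of growing cells, showed the largest difference of the 10 between the days among the called genes (NM_010235, mm9 chromosome 19, 5447698 to 5455938, plus strand). Its level in siCtrl cells was 549, 226, 111 and 97.9 FPKM on days 0 to 3. In siKlf5 cells it was 420, 148, 144 and 90.0 FPKM on days 0 to 3. Both day 0 libraries were thus above all 6 later libraries. Fosl1 fell by 2.35 on the log2 scale from day 0 to day 3 (SE 0.21, limma adjusted p = 5.9e-05). In siCtrl cells the level was 2.43-fold lower on day 1 and 5.60-fold lower on day 3 than on day 0, and in siKlf5 cells it was 2.84-fold and 4.66-fold lower.

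As compared to siCtrl, Fosl1 in siKlf5 cells was lower on day 0 (log2 ratio of -0.39, interval -0.65 to -0.13) and on day 1 (-0.61, interval -1.13 to -0.11). The intervals of day 2 (0.38, -0.06 to 0.81) and day 3 (-0.12, -0.72 to 0.47) included 0. Over the 4 days the siRNA difference was -0.19 (SE 0.15) and was not called (limma adjusted p = 0.731). Fosl1 shares 1162 of its 1707 annotated exon bases (68.1%) with Ccdc85b on the other strand. The counts did not use strand, so reads of the 2 genes cannot be told apart. Ccdc85b was listed at 214, 118, 72.9 and 69.3 FPKM in siCtrl cells and at 154, 103, 81.1 and 50.5 FPKM in siKlf5 cells on days 0 to 3.

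Fosl2 (Fra-2), the other abundant Fos family member, was not called over the days (NM_008037, mm9 chromosome 5, 32438845 to 32460212, plus strand). In siCtrl cells it was measured at 185, 174, 207 and 201 FPKM on days 0 to 3. With siKlf5 it was measured at 146, 160, 167 and 187 FPKM on the same days. On each of the 4 days the siKlf5 library was the lower one, and the counting interval excluded 0 on day 0 (-0.34, interval -0.58 to -0.11) and day 2 (-0.32, interval -0.51 to -0.12). The difference over the 4 days was small, -0.22 on the log2 scale with a limma interval of -0.43 to -0.01, and was not called (adjusted p = 0.496).

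Fos itself, the founding member of the family, was present at low levels throughout (NM_010234, mm9 chromosome 12, 86814851 to 86818219, plus strand). In siCtrl cells it was 3.41, 12.7, 21.4 and 19.4 FPKM on days 0 to 3, from 14, 34, 150 and 83 reads. With siKlf5 it was 4.29, 21.2, 11.6 and 12.8 FPKM, from 16, 59, 47 and 48 reads. All 6 libraries of days 1 to 3 were above both libraries of day 0, and the 2 groups overlapped. Fos rose by 2.02 on the log2 scale from day 0 to day 3 (SE 0.53, limma adjusted p = 0.0165), and with day 0 left out no change between the remaining days was detected (adjusted p = 0.998). Both day 0 libraries held fewer than the 18 reads taken as the detection floor, and the counting interval of the siRNA ratio included 0 on every day. Fosb (NM_008036, mm9 chromosome 7, 19888045 to 19895394, minus strand) rested on 7 to 22 reads per library, between 1.04 and 4.55 FPKM, and no difference was detectable at this depth.

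The fall of the level listed for Fosl1 changed the make-up of the summed Fos family level. Fosl1 made up 74.3% of the summed Fos family FPKM in siCtrl cells on day 0 and 30.6% on day 3, while Fosl2 went from 25.1% to 62.7%. In siKlf5 cells Fosl1 went from 73.5% to 30.7% and Fosl2 from 25.5% to 63.8%. On day 2 the share of Fosl1 was 32.6% in siCtrl and 44.5% in siKlf5 cells. The share of Fos did not exceed 6.39% in any library, and that of Fosb did not exceed 1.09%. The summed Fos family level was 738 FPKM on day 0 and 320 on day 3 in siCtrl cells, and 572 and 293 FPKM in siKlf5 cells. The summed Jun family level lay between 1551 and 2072 FPKM in all libraries, so that Jun family mRNA was 2.31 times that of the Fos family on day 0 and 6.04 times on day 3 in siCtrl cells, and 2.79 and 5.88 times in siKlf5 cells. The highest Jun family sum was that of the shallowest library (siCtrl, day 1) and the lowest that of the deepest (siCtrl, day 2). The part of depth and of the limit on reads per position in these sums and ratios was not tested. The shares come from sums of 1 library each and were not tested. Reads of Fosl1 and Ccdc85b cannot be told apart, and this limit holds for the Fos family shares, sums and ratios too.

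**Figure D2:**
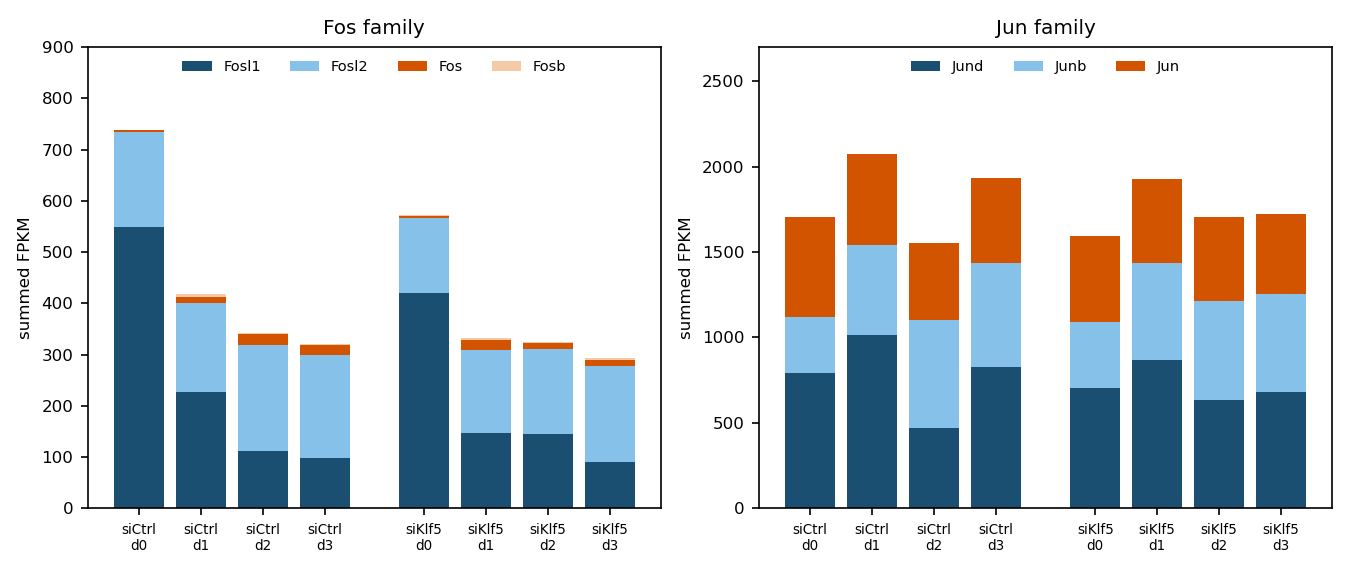
Summed FPKM (vertical axis, linear, from 0) of the Fos family (left) and the Jun family (right) in each of the 8 libraries, with the colours of a bar giving the members; each bar is 1 library. The Fos family bar shrinks from day 0 to day 3 in both groups, through the level listed for Fosl1, while the Jun family bars stay between 1551 and 2072 FPKM. The highest Jun family bar is that of the shallowest library and the lowest that of the deepest. Reads of Fosl1 cannot be told apart from those of Ccdc85b.

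Junb, a Jun family member that is often a weaker activator than Jun, was higher after day 0 (NM_008416, mm9 chromosome 8, 87500808 to 87502647, minus strand). It was measured at 332, 528, 636 and 608 FPKM on days 0 to 3 in siCtrl cells. The siKlf5 libraries measured 382, 568, 578 and 573 FPKM. All 6 later libraries were above both day 0 libraries, and the 2 groups overlapped. Junb rose by 0.73 from day 0 to day 3 (log2, SE 0.12, limma adjusted p = 0.00127), and with day 0 left out the adjusted p over the remaining days was 0.715. On no day did the counting interval of the siRNA ratio exclude 0, and the fitted difference over the 4 days was 0.02, with a limma interval of -0.17 to 0.21 (adjusted p = 0.966).

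Jun, the family member with the broadest range of partners, varied least of the 10 mRNAs in relation to its level (NM_010591, mm9 chromosome 4, 94715727 to 94718913, minus strand). It was 580, 529, 448 and 497 FPKM on days 0 to 3 in siCtrl cells and 503, 490, 492 and 464 FPKM in siKlf5 cells, so that its highest library was 1.295-fold above its lowest. The difference of day 3 from day 0 was -0.17 (log2, SE 0.12, limma adjusted p = 0.306), and that of siKlf5 from siCtrl was -0.07 (interval -0.25 to 0.11, adjusted p = 0.831).

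Jund, which many cells express steadily, was the most abundant of the 10 (NM_001286944, mm9 chromosome 8, 73221638 to 73224515, plus strand). In siCtrl cells it was 790, 1016, 467 and 828 FPKM on days 0 to 3. The siKlf5 values were 707, 868, 637 and 683 FPKM. The siKlf5 library was thus the lower one on days 0, 1 and 3 and the higher one on day 2, where the siCtrl library was the lowest of the 8. The log2 ratios were -0.16 on day 0 (interval -0.32 to -0.003), -0.23 on day 1 (-0.39 to -0.06), 0.45 on day 2 (0.29 to 0.60) and -0.28 on day 3 (-0.43 to -0.12). The change over the days was called (limma F test, adjusted p = 0.0360) but not with day 0 or day 1 left out (adjusted p = 0.116 and 0.112), and day 3 and day 0 differed by 0.01 (SE 0.17).

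The Jund level moved with library depth. Its level was highest in the shallowest library (siCtrl, day 1) and lowest in the deepest (siCtrl, day 2). Over the 8 libraries its log2 level had a Pearson r of -0.883 with the log10 of depth. This r was 0.665 for Nr4a1, -0.646 for Fosb, 0.598 for Fosl2 and -0.40 for Jun. It was 0.143 for Junb and for Egr1, 0.065 for Fos, -0.193 for Fosl1 and -0.249 for Nr4a3. The median r was -0.412 for the 484 transcripts with mean levels of 600 to 1200 FPKM and -0.735 for the 201 at 1200 to 2400. The median siKlf5 over siCtrl ratio on day 2 was -0.04 on the log2 scale for the 3960 transcripts with mean levels of 100 to 300 FPKM, 0.06 for 1351 transcripts at 300 to 600, 0.19 for those at 600 to 1200, 0.33 for those at 1200 to 2400 and 0.42 for 43 above that. At 600 to 1200 FPKM, the class of Jund, the quartiles were 0.09 and 0.28. The authors kept at most 3 reads per position, and Jund held 4512 reads in the deepest library, against 3744 in the shallowest. In the deepest library Junb held 2.14 reads per exon base, Jund 1.57, Egr1 1.53 and Jun 1.51. The part of depth and of this read limit in the values of these genes was not tested.

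Egr1, a zinc finger factor that is the classic serum response gene, was higher on days 1 to 3 than on day 0 in both groups (NM_007913). In siCtrl cells it was 178, 236, 455 and 422 FPKM on days 0 to 3. In siKlf5 cells it was 131, 517, 556 and 472 FPKM on days 0 to 3. Both day 0 libraries were the lowest of the 8, and the siCtrl library of day 1 was the lowest of the others. Egr1 rose by 1.54 from day 0 to day 3 (log2, SE 0.37, limma adjusted p = 0.0361), while the F test over all days did not pass (adjusted p = 0.0724). That F test passed by limma voom (adjusted p = 0.000135), with median-ratio scaling (0.0478) and with day 1 left out (0.000427). It did not pass in the other alternatives run, with adjusted p from 0.0519 (upper-quartile scaling) to 0.433 (day 0 left out).

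The course of Egr1 differed between the siRNAs on day 1. As compared to siCtrl, the siKlf5 library was 2.19-fold higher on day 1 (log2 ratio of 1.13, interval 0.86 to 1.42), after a lower level on day 0 (-0.45, interval -0.79 to -0.10). On day 2 the ratio was 0.29 (interval 0.13 to 0.45) and on day 3 it was 0.16 (interval -0.03 to 0.36). From day 0 to day 1 the level thus went up 3.94-fold in siKlf5 and 1.32-fold in siCtrl cells. The difference over the 4 days was 0.28 (SE 0.26) and was not called (limma adjusted p = 0.789), and it was 0.002 with day 1 left out. Egr1 was 1 of 2 genes of the 10 above siCtrl by more than 1.5-fold on day 1, beside 16.4% of all transcripts.

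Nr4a1 (Nur77), an orphan nuclear receptor, was higher late in differentiation and lower in siKlf5 cells on days 2 and 3 (NM_010444, mm9 chromosome 15, 101097277 to 101105225, plus strand). In siCtrl cells it was 41.6, 37.3, 91.8 and 102 FPKM on days 0 to 3, from 202, 118, 761 and 516 reads. In siKlf5 cells it was 26.5, 35.3, 48.2 and 50.9 FPKM, from 117, 116, 231 and 225 reads. The siKlf5 library was the lower one on each of the 4 days, and the siCtrl libraries of days 2 and 3 were above all other libraries. Nr4a1 rose by 1.12 from day 0 to day 3 over both groups (log2, SE 0.27, limma adjusted p = 0.0110). The limma F test over all days passed (adjusted p = 0.0185), but not with day 0, day 2 or day 3 left out (0.14, 0.0514 and 0.0572).

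The ratio of siKlf5 to siCtrl for Nr4a1 was -0.65 on day 0 (interval -1.53 to 0.20), -0.08 on day 1 (-1.07 to 0.90), -0.93 on day 2 (-1.49 to -0.40) and -1.001 on day 3 (-1.60 to -0.43). The siKlf5 level was 52.5% of siCtrl on day 2 and 49.9% on day 3. The siCtrl library of day 2 was the deepest, and the log2 level of Nr4a1 had a Pearson r of 0.665 with the log10 of depth. The part of depth in the Nr4a1 values was not tested. The difference over the 4 days was -0.67 (SE 0.19) by limma, with an unadjusted p of 0.00595, and did not pass the correction over all transcripts (adjusted p = 0.279). By limma voom on the reads recovered from the table it was -0.80 and passed (adjusted p = 0.0371). Nr4a3 (Nor-1), the related receptor (NM_015743, mm9 chromosome 4, 48064120 to 48096224, plus strand), had 0, 6, 2 and 24 reads in siCtrl and 0, 3, 2 and 0 reads in siKlf5 cells. Its level on day 3 was 6.24 FPKM in siCtrl and listed at 0 in siKlf5 cells, at least 1.165-fold lower against the floor of 18 reads per library, and the interval of this ratio reached up to 0.79, so that no difference was detectable at this depth.

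**Figure D3:**
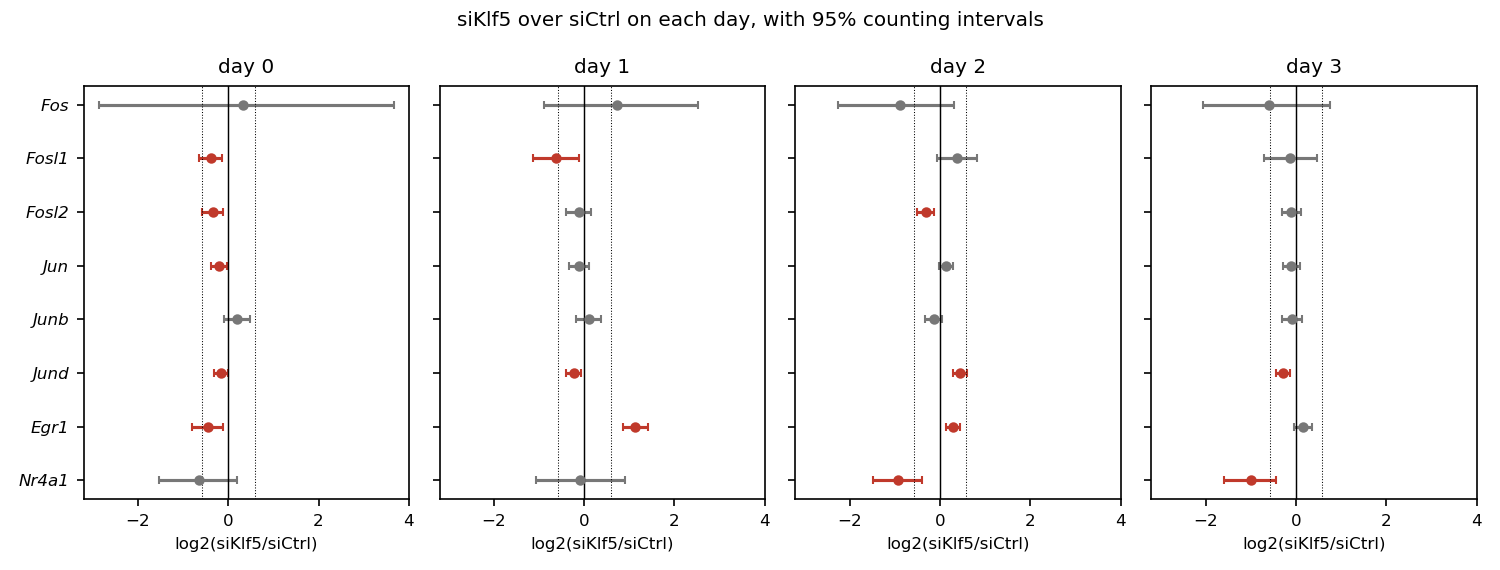
Log2 ratio of siKlf5 to siCtrl (horizontal axis) on each day for 8 of the 10 genes; Fosb and Nr4a3 are left out for their few reads. Points are ratios of 1 library to another, bars are 95% counting intervals, red marks intervals that exclude 0 and dotted lines mark 1.5-fold; Egr1 stands out on day 1 and Nr4a1 on days 2 and 3.

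Over all 10 genes, 0 were called between siKlf5 and siCtrl by limma over the 4 days, beside 0.161% of all transcripts (23 of 14312). At an unadjusted p under 0.05, 2 of the 10 passed (Fosl2 and Nr4a1), beside 9.68% of all transcripts (1385), and limma voom on recovered reads called 1 (Nr4a1), beside 1.60% (229). This fit asks for a difference shared by all days, and Klf5 itself, at -1.94 (SE 0.23), had an adjusted p of 0.0744 in it, against 1.6e-05 by limma voom. With 1 library a group, single days allow no test, and members past 1.5-fold were counted. On day 0, 1 was lower (Nr4a1), beside 11.1% of all transcripts, and 0 were higher, beside 9.22%. On day 1, 3 were lower (Fosb, Fosl1 and Nr4a3), beside 11.0%, and 2 were higher (Fos and Egr1), beside 16.4%. On day 2, 2 were lower (Fos and Nr4a1), beside 13.0%, and 1 was higher (Nr4a3), beside 7.69%. On day 3, 3 were lower (Fos, Nr4a1 and Nr4a3), beside 12.5%, and 0 were higher, beside 10.7%. Of these 12 counts of a gene on a day, only Fosl1 and Egr1 on day 1 and Nr4a1 on days 2 and 3 had an interval that excluded 0.

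**Figure D4:**
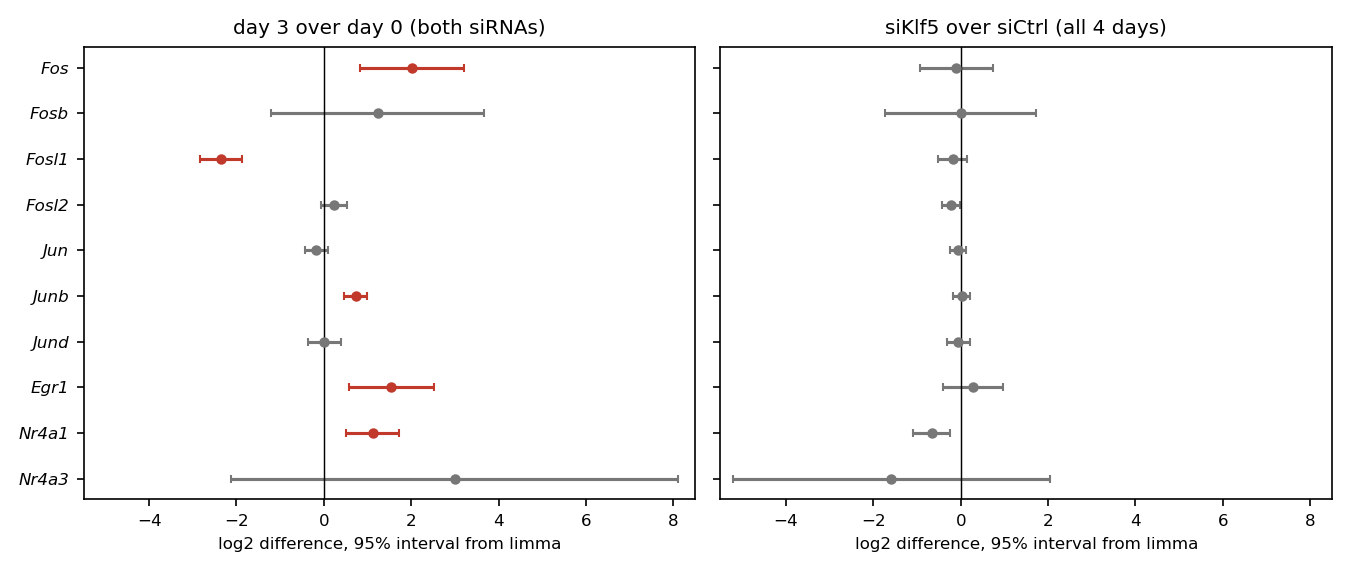
Log2 difference of day 3 from day 0 over both siRNAs (left) and of siKlf5 from siCtrl over the 4 days (right) for each gene, with 95% intervals from limma; red marks an adjusted p under 0.05. Fos, Junb, Egr1 and Nr4a1 lie to the right and Fosl1 to the left of 0 in the day comparison, and no gene is red in the siRNA comparison.

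Among the 10 genes, the patterns over the 8 libraries that lay closest to each other were those of Fos and Junb (Pearson r of 0.96 of the log2 level), followed by Fosl2 and Nr4a1 (0.895) and Egr1 and Junb (0.871). Fosl1 ran against Junb (-0.951), Fos (-0.894) and Egr1 (-0.888), and the closest to it was Jun (0.801). The 11593 transcripts compared had a mean of at least 10, apart from Fosb and Nr4a3, which were kept in. Among them, those most like Fosl1 were Phb2, Etf1 and Ddah1 (r of 0.987 to 0.991). Those most like Jund were Ndufb4, Trpv2 and Drap1 (0.942 to 0.965), those most like Egr1 were Ttyh2, Sepp1 and Sec16b (0.985 to 0.993), and those most like Nr4a1 were Mgl2, Tnk1 and Mtcl1 (0.965 to 0.973). These coefficients describe 8 libraries that share days and siRNAs.

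Of 31 other immediate early genes tested, 5 were called higher on day 3 (16.1%) and 5 lower (16.1%), beside the 13.1% and 18.0% of all transcripts given above. The higher ones were led by Egr3, a relative of Egr1, at 3.0 on the log2 scale (SE 0.35, limma adjusted p = 0.000362). Egr3 was 29.4, 60.7, 153 and 150 FPKM on days 0 to 3 in siCtrl cells and 10.8, 68.0, 103 and 139 FPKM in siKlf5 cells. Both day 0 libraries were thus the lowest of the 8, as for Egr1. Sik1 (1.27), Gadd45b (1.06) and Tnfaip3 (0.63) followed. Called lower were Atf3 (-1.52), Csrnp1 (-1.02), Ier3 (-1.02) and Myc (-0.99), the growth-promoting factor, together with Ier5 (-0.63). The median over the 31 genes was 0.12, beside -0.09 for all transcripts. Egr2, chosen after its values were seen, was 8.41, 9.74, 29.0 and 32.8 FPKM in siCtrl and 0, 27.3, 36.1 and 39.4 FPKM in siKlf5 cells and was not called on day 3 (adjusted p = 0.182).

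Of 19 genes of negative feedback, which shut the response off, 2 were called higher on day 3 (10.5%) and 7 lower (36.8%), beside 13.1% and 18.0% of all transcripts, with a median of -0.28 against -0.09. Spry1, an inhibitor of receptor tyrosine kinase signalling, was higher by 2.59 and Zfp36l1, which destabilizes mRNAs, by 1.99. Dusp4 (-1.29) and Dusp5 (-1.14), phosphatases of the MAP kinases, Trib1 (-1.14) and Zfp36l2 (-0.99) led the lower ones. Dusp4 went from 637 FPKM on day 0 to 208 FPKM on day 3 in siCtrl cells and from 470 to 243 FPKM in siKlf5 cells. Of 24 upstream kinases and factors, 2 were called higher (Rps6ka1 at 2.22 and Mapk8 at 0.83) and 2 lower (Rps6ka4 at -1.30 and Elk3 at -1.07). Each share was thus 8.33%, from 2 genes, beside 13.1% and 18.0% of all transcripts. Srf, the factor that binds the CArG box, was not called (0.18, adjusted p = 0.40). Of 13 other bZIP partners of AP-1, Maf was called higher (2.16), and Atf3 and Jdp2 (-0.70), which can repress at AP-1 sites, were called lower. Thus 7.69% were higher and 15.4% lower, near the shares of all transcripts for so few genes.

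Of 21 genes that AP-1 is known to drive in other cultured cells, 6 were called lower on day 3 (28.6%) and 1 higher (4.76%), beside 18.0% and 13.1% of all transcripts, with a median of -0.30. Among the lower ones were the growth factor Areg (-2.83), the cell cycle gene Ccnd1 (-2.42), the urokinase receptor Plaur (-2.39) and Hmox1 (-1.47), and the higher one was Tgfb1 (0.41). Mmp10, also called lower, was 6.79, 9.51, 1.04 and 0 FPKM on days 0 to 3 in siCtrl and 14.3, 2.61, 1.79 and 0.973 FPKM in siKlf5 cells, so that the size of its fitted change depends on the pseudocount. Plaur was 461, 349, 130 and 68.9 FPKM on days 0 to 3 in siCtrl cells, and 281, 206, 121 and 68.4 FPKM in siKlf5 cells. The siKlf5 library was the lower one on all 4 days, with the widest gaps on days 0 and 1.

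Between the siRNAs, 0 genes of these 5 lists were called by limma over the 4 days. Limma voom called 2 AP-1 target genes (Hbegf among them), 2 upstream genes (Map2k1 and Rps6ka1), 1 bZIP partner (Maf) and 0 of the other immediate early and feedback genes, beside 1.60% of all transcripts. Hbegf, a ligand of the EGF receptor that was chosen after its values were seen, was 90.8, 107, 46.5 and 42.2 FPKM in siCtrl cells and 35.0, 44.7, 28.3 and 28.3 FPKM in siKlf5 cells. The siKlf5 library was the lower one on each day (-0.98 over the 4 days, limma adjusted p = 0.107). At an unadjusted p under 0.05, 7 AP-1 target genes were lower and 2 higher in siKlf5 cells, and 8 other immediate early genes were lower and 0 higher, beside 805 and 580 of all 14312 transcripts. On day 0, 8 of the 21 AP-1 target genes (38.1%) were lower by more than 1.5-fold in siKlf5 cells and 1 was higher, beside 11.1% and 9.22% of all transcripts. On day 1, 8 were lower and 1 higher, beside 11.0% and 16.4%. On day 2 the counts were 3 lower (14.3%) and 2 higher (9.52%), near the 13.0% and 7.69% of all transcripts. On day 3 they were 4 lower and 2 higher, beside 12.5% and 10.7%. Ereg, Hbegf, Mmp9 and Plaur were among the lower genes on both day 0 and day 1. Mmp9 among them did not exceed 1.85 FPKM in any library. Il6 and Mmp3, also in these counts, did not exceed 8.58 and 7.91 FPKM, and the low levels of Mmp10 are given above. By the same 1.5-fold count, 7 of the 31 other immediate early genes (22.6%) were lower and 0 higher on day 0. On day 1, 4 of them (12.9%) were lower and 3 (9.68%) higher (Arc, Egr2 and Nfkbiz). On days 2 and 3, 3 each were lower (9.68%), and 0 and 3 were higher. The feedback, upstream and bZIP lists had 2 lower genes each on day 0 (10.5%, 8.33% and 15.4%) and 0, 1 and 3 higher. These are counts from 1 library against another and were not tested, and the lists were chosen with earlier results of these data known.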

How the data were processed

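The study measured poly(A) RNA of C2C12 cells by paired-end sequencing. Per the labels, the authors aligned reads to mm9 with STAR and used HOMER to count exon reads of RefSeq genes on either strand, with a limit of 3 reads at a position and 1 transcript for each gene. The authors deposited FPKM values scaled to a matrix total of 10000000, which makes them larger than conventional FPKM. The log2 columns the authors deposited hold log2 of FPKM with an added number and were not used, nor was 1 of them whose name gives no day. The labels name DESeq2 for read counts, which were not used here. The 6 ChIP and input samples were not analysed here.

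Libraries were grouped by the siRNA and day in their labels. Reads were recovered from the steps of the FPKM values with the exon length: 1802 to 1943 low values checked per library all lay within 0.1 of a whole number. Transcripts with 6 reads were 2.827 to 10.019 times as many as those with 5 reads per library, though other counts occurred. Counting intervals were therefore taken on reads divided by 6, with a floor of 3 such counts, or 18 reads. Tests used limma 3.58.1 (R 4.3.3) on log2(FPKM + 0.1), which understates changes of low genes, with day and siRNA as terms, an intensity trend and robust moderation, over transcripts with a mean of at least 1. P-values were adjusted over all of these (Benjamini-Hochberg), with a threshold of 0.05. The script was tested on simulated data. Alternatives were pseudocounts of 1 and 0.5, 2 other scalings, no filter or a mean of at least 5, plain moderation, limma voom on recovered reads, a 2-fold cutoff and each day left out. The median ratios by level and the relation to depth were added after seeing the data. Genes named from the lists were at most 4 called in each direction by size, and for likeness the nearest other member and the 3 nearest transcripts of the most abundant Fos, Jun, Egr and Nr4a gene. Members and lists were chosen with earlier results of these data known. RefSeq promoters of GRCm38.p6 were matched by symbol (8 of 10). 1 gene of the AP-1 target list was counted with its list and is not reported here by name.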

Additional observations from a re-analysis of the deposited data

Results flagged for a closer look

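Jund and Egr1 had siKlf5 over siCtrl ratios on opposite sides of 0 on different days, each with a counting interval that excluded 0. For Jund the log2 ratio was 0.446 on day 2, against -0.159 on day 0, -0.226 on day 1 and -0.276 on day 3. The siCtrl library of day 2 was the deepest, and the Jund level was lowest there. For Egr1 the log2 ratio was -0.445 on day 0, against 1.133 on day 1 and 0.288 on day 2. With 1 library per siRNA and day, the difference between days was not tested.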

How the results depend on the processing

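With a pseudocount of 1 or 0.5, limma called as many of the 10 genes as before in each comparison, and 2 in place of 3 genes passed 1.5-fold on day 2 (without Nr4a3) and on day 3 (without Fos). Without a filter on low values, 0 transcripts were called between the siRNAs, 800 between day 3 and day 0 and 96 over the days, with 0 of the 10 genes in each. With plain moderation these counts were 0, 2593 and 935 transcripts, with 0, 2 and 0 of the 10 genes. Limma voom on recovered reads called 229 transcripts between the siRNAs, with 1 of the 10 genes. The cause was not tested. With each day left out in turn, 0 (without day 2) to 39 (without day 0) transcripts were called between the siRNAs and 505 (without day 0) to 4389 (without day 1) over the days, with 0 (without day 0) to 5 of the 10 genes in the latter. With a mean of at least 5, 3 of the 10 genes passed 1.5-fold on day 1, and at 2-fold 0, 1 and 0 passed on days 0, 1 and 2. Called differences of day 3 from day 0 kept their direction under every alternative run. Each fit pairs the siCtrl and siKlf5 libraries by day, which is a term in it. With few reads for Fos, Fosb and Nr4a3, depth limits what can be detected for them.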
